A study of Homo sapiens with 10 samples.

Results

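The control libraries of this series came from hTERT RPE-1, a human retinal pigment epithelial line immortalised with telomerase, and they are 5 of its 10 libraries. They were taken by their labels: 3 libraries of cells given the vehicle DMSO for 30 min, and 2 of cells left untreated. All cells, these included, were wild type and had spent 48 h in medium with 0.1% serum, and 150 ng of purified RNA went into each TruSeq Stranded mRNA library. The DMSO libraries were the controls of a 30 min experiment with merbarone, a topoisomerase II inhibitor, at 200 µM (3 libraries), and the untreated libraries those of a 2 h experiment (2 libraries). Vehicle, experiment and sequencing depth therefore change together between the control groups and cannot be told apart. RPE-1 is 1 established line, and the labels do not say whether libraries of a group came from separate cultures, so p-values measure only the spread between these libraries.

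The retinal pigment epithelium is the pigmented layer behind the photoreceptors, where it recycles visual pigment, makes melanin and takes up shed photoreceptor membrane. In culture its cells flatten, lose pigment and take on mesenchymal features, with much extracellular matrix. Low serum is used to send RPE-1 cells out of the cell cycle into quiescence, a reversible arrest in which CDK inhibitors and pocket proteins hold back the genes of replication and mitosis.

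The libraries held 26634328, 30682705 and 38226562 reads in the DMSO group and 13323640 and 11957132 in the untreated group, as recovered from the deposited values. Between 6385 and 6628 genes per library reached 1 RPKM, and mitochondrial genes took 1.29 to 1.48% of reads. On the log2(RPKM + 1) scale, Pearson's r across genes was 0.981 to 0.991 within the DMSO group, 0.992 within the untreated group and 0.950 to 0.960 across them. No pair was a repeat of 1 library, since counts within groups differed by 9.72 to 58.6 chi-square units per degree of freedom. The first principal component (74.3% of the variance) separated the groups. The second (14.2%) set DMSO library 1, with a score of 11.1, apart from DMSO libraries 2 and 3, with -9.17 and -2.79.

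RPKM in these tables divides a gene's reads by a length that is, for most genes, its whole genomic span with introns. Levels of different genes are therefore compared as the same measure computed over summed exon length, called the exon level. That length takes in every annotated exon, so a gene with much annotated exon sequence gets a lower exon level. It was 461 bp for TMSB10, 3988 bp for RPLP0 and 6550 bp for TAGLN, whose length in the deposited values was 5462 bp. Any reads counted in introns would raise the exon level. Ranks between genes and counts of genes at an exon level of 1 are therefore approximate. The median exon level was 3.95 over the 17118 genes with reads in any control library and 13.4 over the 6544 genes tested. RPKM is used for 1 gene across libraries.

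By exon level the most abundant nuclear RNAs were those of actin dynamics, the cytoskeleton, lysosomes and secreted factors. TMSB10, which encodes the actin-binding peptide thymosin beta 10, led with an exon level of 2775 ± 1134 (SD, n = 5 libraries). It was followed by PSAP, the precursor of the lysosomal saposins, at 1626 ± 212, VIM, the intermediate filament vimentin, at 1486 ± 395, and LGALS1, the secreted lectin galectin 1, at 1258 ± 109. SFRP1, a secreted WNT antagonist, stood at 1183 ± 109 and ACTG1, cytoplasmic gamma actin, at 1082 ± 468. The next were S100A6 (989 ± 160.2), POLR2L, an RNA polymerase subunit (979.7 ± 112), and MMP2, the gelatinase that cuts collagen IV (905 ± 84.4). ACTB, beta actin, had 745 ± 398. The remaining 2 of the top 12 had no symbol in the tables used, and each overlaps other genes, so their levels are uncertain. TMSB10 also overlaps another gene, as do other genes named below, among them PAX6, LOX, TAGLN, KRT7 and KRT18. The same limit holds for these. From PSAP downward, neighbours in this order lie within the larger of their SDs, so their ranks are not resolved. The control groups differed in TMSB10, ACTG1 and ACTB, as described further on.

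The pigment epithelial programme was present only in part. Of 23 genes of the visual cycle and epithelial support, 12 had an exon level of at least 1, and the defining ones were near 0. RPE65, the isomerase of the visual cycle, measured 0.00888, 0.0185 and 0.0124 RPKM in the DMSO libraries and 0.0213 and 0.0316 RPKM in the untreated ones, from 5 to 12 reads per library. LRAT, which esterifies retinol, had 0 to 47 reads per library, and RLBP1, the retinaldehyde carrier, 2 to 22. Genes with broader roles in retinoid or lactate handling were present: RDH5, a retinol dehydrogenase, had an exon level of 12.4 ± 2.81 and BSG, the chaperone of lactate transporters, 144. RDH5 overlaps another gene, so its level is uncertain. MERTK, the receptor for uptake of shed photoreceptor membrane, reached 4.43 ± 0.433 (SD, n = 5), and its ligand GAS6 154 ± 51.9.

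Melanin synthesis was not detected or near 0. TYR, tyrosinase, had at most 9 reads in a library, TYRP1 6 to 27, and DCT none in any of the 5 libraries, where 3 reads in the shallowest would have been 0.00585 RPKM. Melanosome structure genes had reads throughout: PMEL, which forms the melanosome fibrils, measured 4.12, 4.25 and 3.95 RPKM with DMSO and 5.07 and 4.68 RPKM untreated, and GPNMB 10.99, 14.1 and 15.4 against 13.5 and 13.4 RPKM. The 2 groups did not overlap for PMEL but overlapped for GPNMB, and limma called neither (adjusted p 0.108 and 0.960).

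Among 17 transcription factors of the eye field and pigment epithelium, 9 had an exon level of at least 1. OTX2, which specifies the pigment epithelium, measured 2.46, 3.94 and 3.30 RPKM with DMSO and 4.35 and 4.61 RPKM untreated. PAX6, the eye-field factor, measured 1.37, 2.61 and 2.35 RPKM with DMSO and 1.80 and 1.59 RPKM untreated. MITF, which drives melanin genes, had 0.218 to 0.349 RPKM and an exon level of 8.32 ± 1.69. The highest exon levels of the list were those of MAB21L2 (40.5), SIX3 (34.2) and SOX9 (30.0), all 3 eye development genes. CRX, a photoreceptor and pineal factor, had no read in any of the 5 libraries. The OTX2 groups did not overlap, but neither OTX2 nor PAX6 was called by limma (adjusted p 0.0840 and 0.444). Without DMSO library 1, PAX6 was called higher with DMSO (log2 difference 0.37, adjusted p 0.0189), and without DMSO library 2, OTX2 was called lower (-0.51, adjusted p 0.0146).

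Of 22 epithelial genes, 8 had an exon level of at least 1. CDH1, E-cadherin, had 2 to 4 reads per library and EPCAM 0 to 2, whereas the exon levels of KRT18, KRT8 and KRT7 were 44.6 ± 30.8, 26.8 ± 16.1 and 11.2 ± 6.01 (SD, n = 5), and those of the junction genes TJP1 and F11R 12.4 and 5.24. KRT5, KRT14 and CLDN3 had no reads in the 5 libraries. Of 22 mesenchymal genes, 20 had an exon level of at least 1, among them CDH2, N-cadherin, at 33.7 ± 4.65, and ZEB1, a repressor of CDH1, at 6.69 ± 0.471. TAGLN, a smooth muscle actin-binding protein, had 196 ± 94.9 and ACTA2, smooth muscle actin, 111 ± 109.

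Most markers of other cell types had exon levels below 1. AQP4 (astrocytes) and CDH5 (endothelium) had no reads, and 3 reads in the shallowest library would have been 0.0183 and 0.00659 RPKM. RBFOX3 (neurons) had at most 3 reads per library and PTPRC (leukocytes) 5 to 25. Exon levels of 1 or more were reached by 3 of 10 photoreceptor genes, 1 of 6 glial genes, 3 of 8 neuron genes, 0 of 7 measured endothelial genes and 1 of 8 leukocyte genes. The highest were OPN1SW, a cone opsin (13.04), GLUL, glutamine synthetase (10.6), TUBB3, a tubulin (32.6), and CD68, a lysosomal protein (30.8). OPN1SW, which overlaps another gene, measured 3.89, 3.78 and 4.06 RPKM with DMSO and 5.30 and 4.81 RPKM untreated, and limma called it lower (log2 difference -0.30, adjusted p 0.0366), but not with any 1 library left out. The lists' summed RPKM in the DMSO and untreated groups ran from 4.50 to 4.65 and 5.64 to 6.21 for photoreceptors, from 8.95 to 13.2 and 14.4 to 15.6 for glia, and from 8.80 to 14.5 and 15.4 to 19.3 for neurons. The endothelial sums were 0.0739 to 0.108 and 0.0827 to 0.0834 RPKM, and the leukocyte sums 23.1 to 30.9 and 21.1 to 21.3 RPKM. The part of other cells in any result was not tested.

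**Figure D1:**
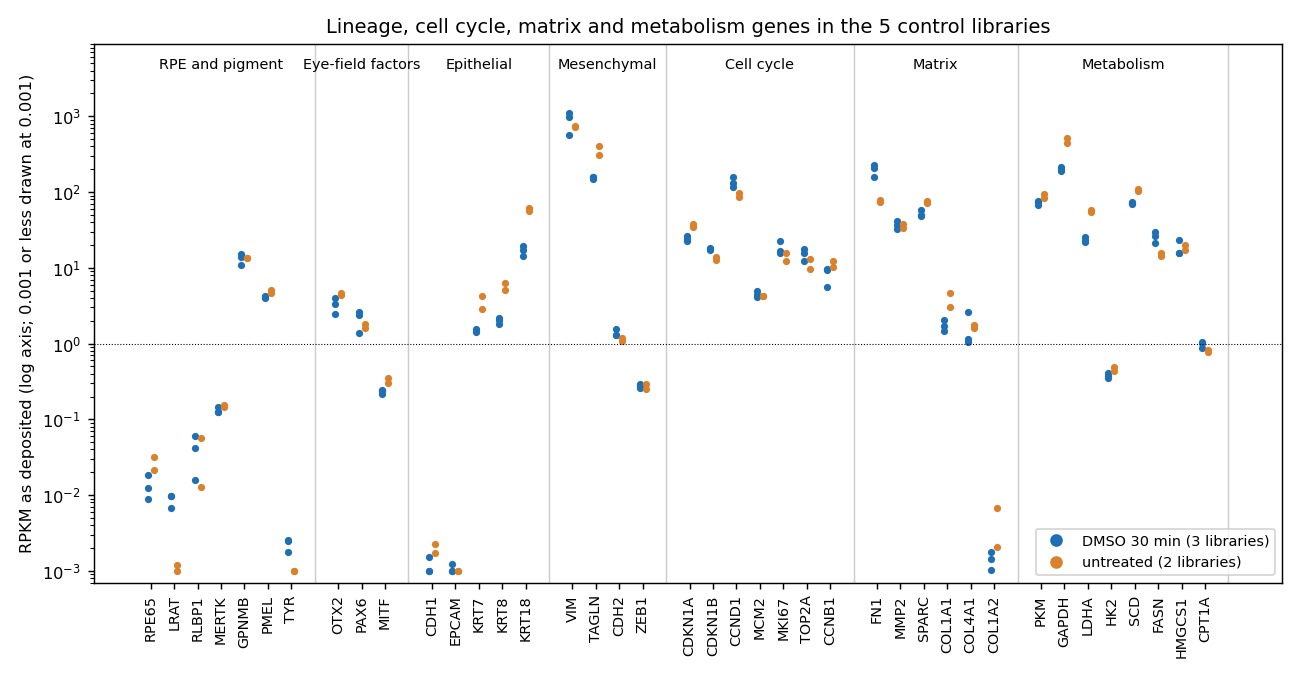
RPKM as deposited (log axis) of lineage, cell cycle, matrix and metabolism genes in the 5 control libraries, blue points for the 3 DMSO libraries and orange points for the 2 untreated libraries. The visual cycle genes RPE65, LRAT and RLBP1 and the epithelial genes CDH1 and EPCAM lie below 0.1 RPKM, while VIM, FN1 and GAPDH lie above 70 RPKM in every library, and blue and orange points separate for KRT18, TAGLN, FN1 and GAPDH.

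After 48 h in low serum, RNAs of arrest and of proliferation were both present. CDKN1A, the CDK inhibitor p21, had an exon level of 105 ± 24.3 (SD, n = 5), CDKN2A 38.1 and CDKN1B, the CDK inhibitor p27, 12.7 ± 2.00, whereas CDKN1C (p57) had 0.751 ± 0.227. The pocket proteins RB1 and RBL2 had 17.1 ± 2.60 and 11.3 ± 1.599. CCND1, cyclin D1, which links growth signals to the cycle, was at 331 ± 78.6. GAS1, a growth-arrest gene, was at 0.0568 ± 0.0214, and CCNG2, a FOXO target, at 5.49 ± 0.987.

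All 36 genes of the G2/M and mitosis list had an exon level of at least 1, with a median of 25.1 over the list, and 34 of 35 measured G1/S and replication genes did, with a median of 11.7. MKI67, the proliferation antigen Ki-67, measured 15.8, 16.7 and 22.5 RPKM with DMSO and 15.7 and 12.2 RPKM untreated. TOP2A, topoisomerase II alpha, one of the merbarone targets, had an exon level of 63.1 ± 14.3, PCNA 92.8 ± 8.45 and CCNB1, cyclin B1, 43.7 ± 11.2. Bulk libraries do not tell fewer cycling cells from less RNA per cell, and no cycling library was measured for comparison.

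Matrix and its enzymes were among the abundant RNAs. Among the highest after MMP2 were FN1, fibronectin, with an exon level of 654 ± 311 (SD, n = 5), CCN2, connective tissue growth factor, with 349.6 ± 172, and SPARC, a collagen-binding glycoprotein, with 341 ± 69.6. MMP14 (320) and TIMP2 (328), which together activate MMP2 on the cell surface, stood beside them. The chains of collagen I were unequal: COL1A1 had 5.29 ± 2.69 and COL1A2 1 to 3 reads per library. The collagen IV chains COL4A1 and COL4A2 had 17.5 ± 6.55 and 25.4 ± 4.82. TIMP3, an inhibitor that binds the matrix of the pigment epithelium, was at 0.326 ± 0.124. The fibrillar and network collagens took 0.234 to 0.355% of reads per library, the glycoproteins and laminins 1.49 to 3.21%.

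In metabolism, 21 of 22 glycolysis genes, 24 of 24 TCA cycle genes and 38 of 38 nuclear respiratory chain genes had an exon level of at least 1. GAPDH stood at 584 ± 290.4 and PKM, pyruvate kinase, at 303 ± 36.5 (SD, n = 5), while HK2, the inducible hexokinase, had 4.15 ± 0.553. SLC2A1, the glucose transporter GLUT1, had 98.8 ± 9.24. Lipid synthesis was represented by SCD, which desaturates fatty acids, at 289 ± 65.6 and FASN, fatty acid synthase, at 46.1 ± 14.3. CPT1A, the entry step of mitochondrial fatty acid oxidation, had 12.5 ± 1.68.

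The comparison of DMSO with untreated cells asks how far the controls of the 2 experiments are alike. Limma called 1925 of 6544 genes tested at an adjusted p below 0.05 (29.4%), 628 higher with DMSO (9.6%) and 1297 lower (19.8%). Groups did not overlap for 3860 genes (59.0%), all 1925 called genes among them. Most differences were small: the median absolute log2 difference was 0.415 in the higher genes and 0.459 in the lower ones, and 142 called genes (2.17%) differed by at least 1, of which 21 were higher and 121 lower. The median over all tested genes was -0.07. Higher genes were 32.6% of the calls, but 53.5% after median scaling, 52.5% after quantile normalization, 55.0% in voom on recovered reads, 48.4% with GC content removed and 47.8% with gene length removed, so the balance of directions depends on the scaling. A gene could pass the mean of 1 RPKM through 1 group alone, as ITGA2, IGFBP4, EGFR, TNC, NID2, ITGB8, ENSG00000267802, BTG2, F11R and SUMO2P21 did, and such a gene had to differ to be tested. Without untreated library 2 the count fell to 306, without untreated library 1 to 841 and without DMSO library 3 to 910.

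The genes called higher were longer and had less GC than those called lower. Their median length in the deposited values was 37559 bp against 11576 bp for genes called lower and 17448 bp for all tested, and their median GC content 43.7% against 51.4% and 51.2%. Of the 1309 longest genes, 278 were called higher and 119 lower. Of the 1309 shortest, 67 were called higher and 373 lower. Depth differed between the groups by more than the spread within either one. The part of length, GC content and depth in single genes was not tested beyond the fits with each removed.

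The largest difference upward, 2.62, was that of ENSG00000267802, a gene with an identifier only, and the largest with a symbol was that of PLAT. PLAT (GRCh37 chr8:42032236-42065227, minus strand), tissue plasminogen activator, measured 29.6, 20.9 and 16.8 RPKM with DMSO and 5.62 and 5.93 RPKM untreated, a log2 difference of 1.75 ± 0.21 (SE, limma adjusted p 0.00203). IGFBP4 (chr17:38599702-38613977, plus strand), which binds insulin-like growth factors, measured 6.16, 3.96 and 4.14 RPKM against 0.788 and 0.913 RPKM, a difference of 1.62 ± 0.16 (adjusted p 0.000996). FN1 (chr2:216225163-216300796, minus strand) measured 225, 156 and 209 RPKM against 77.8 and 75.01 RPKM, a difference of 1.34 ± 0.17 (adjusted p 0.00251). For all 3 genes every DMSO library lay above both untreated libraries, as for every gene called higher.

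ITGA2 (chr5:52285170-52390609, plus strand), the alpha 2 chain of a collagen receptor, measured 2.48, 1.94 and 2.19 RPKM with DMSO and 0.467 and 0.332 RPKM untreated. Its log2 difference was 1.19 ± 0.09 (SE, limma adjusted p 0.000410). VCAN, the proteoglycan versican, ALDH1A3, which makes retinoic acid, and UNC45B, a myosin chaperone, rose by 1.18, 1.18 and 1.56 on the log2 scale. The other 5 of the 12 largest differences, all above that of FN1, belonged to genes with an identifier only. ENSG00000267802 was at 7.80 to 14.2 RPKM with DMSO and 0.357 to 1.28 RPKM untreated. Without untreated library 2, FN1 (adjusted p 0.0562), PLAT (0.0541), VCAN (0.142), ALDH1A3 (0.0658) and UNC45B (0.0682) were not called, and without untreated library 1 VCAN (0.0790) and UNC45B (0.0623) were not. The log2 differences of FN1 and PLAT were then 1.31 and 1.78.

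The matrix lists differed in their calls. Over all tested genes, 9.6% were called higher and 19.8% lower. Collagens had 1 of 6 called higher, COL12A1 (0.62), and 1 lower, COL1A1 (-0.82), and proteoglycans 3 of 8 higher and 2 lower, with medians of -0.04 in both. Of 18 glycoproteins and laminins tested, 8 were called higher and 2 lower, with a median log2 difference of 0.30. The 8 were FN1, the fibrillin FBN1 (0.95), tenascin TNC (0.85), the laminin chains LAMA4 (0.81), LAMC1 (0.44) and LAMB1 (0.38), LTBP3 (0.80), which holds latent TGF-beta, and nidogen NID2 (0.72). TNC and NID2 passed the mean of 1 RPKM through the DMSO group alone, so they had to differ to be tested. SPARC (-0.49) and EFEMP1 (-0.54) were the 2 called lower. Neither was called without untreated library 2, nor was SPARC without untreated library 1 or DMSO library 2 or 3. Among 19 matrix enzymes and inhibitors, 5 were called higher and 1 lower (median 0.18): PLAT, the collagen crosslinker LOX, MMP14 (0.67), TIMP1 (0.54) and the urokinase receptor PLAUR (0.34) were higher, and the collagen chaperone SERPINH1 (-0.58) was lower.

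LOX measured 51.9, 53.5 and 56.8 RPKM with DMSO and 28.6 and 26.1 RPKM untreated, with a log2 difference of 0.96 ± 0.11 (SE, limma adjusted p 0.00158). Integrins, the receptors for these proteins, had 4 of 9 called higher and 0 lower, against 9.6% and 19.8% of all tested genes. Their median was 0.23, and the 4 were ITGA2, ITGAV (0.59), ITGA6 (0.45) and ITGB8 (0.39). ITGA2 and ITGB8 passed the mean of 1 RPKM through the DMSO group alone, so they had to differ to be tested. ITGB1, the shared beta 1 chain, differed by 0.09 and was not called. Under the 5 other scalings the upward counts of glycoproteins and laminins, matrix enzymes and integrins were 7 to 11, 5 to 6 and 4 to 5. The 3 rises of the proteoglycans became 0 without either untreated library, and that of COL12A1 was lost without either one or DMSO library 3. For the other 3 lists the counts were 2, 1 and 1 without untreated library 2, without untreated library 1 they were 3, 2 and 4, and without DMSO library 3 they were 5, 3 and 4.

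The 12 largest differences downward included RPL19, RPS12, RPL26, RPS4X and RPLP1, which encode ribosomal proteins, FTH1, the ferritin heavy chain, and ACTA2. Many genes called lower have processed pseudogenes, intronless copies of their mRNA elsewhere in the genome. The first 75 coding bases of 5 of them are shown beside those of a similar named pseudogene. Each was the closest among those searched, and some chromosomes were left out of the search. Whether this likeness affected the values was not tested. Letters in capitals are pseudogene bases that differ from the gene. The sequences are those of the GENCODE annotation on GRCh37, 5′ to 3′ on the strand of each gene.
RPL19: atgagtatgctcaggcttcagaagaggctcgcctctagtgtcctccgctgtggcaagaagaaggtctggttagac
RPL19P21: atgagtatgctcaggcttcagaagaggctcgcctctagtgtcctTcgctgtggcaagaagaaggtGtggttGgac
RPS12: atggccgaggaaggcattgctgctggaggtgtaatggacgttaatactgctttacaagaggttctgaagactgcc
RPS12P4: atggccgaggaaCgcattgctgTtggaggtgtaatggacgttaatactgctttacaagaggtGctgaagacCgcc
FTH1: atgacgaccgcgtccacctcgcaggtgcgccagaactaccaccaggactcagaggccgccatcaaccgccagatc
FTH1P12: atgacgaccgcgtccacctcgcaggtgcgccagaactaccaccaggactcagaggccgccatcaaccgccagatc
KRT18: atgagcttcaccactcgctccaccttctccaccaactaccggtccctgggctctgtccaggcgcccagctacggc
KRT18P1: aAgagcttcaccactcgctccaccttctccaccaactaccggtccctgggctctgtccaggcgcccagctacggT
GAPDH: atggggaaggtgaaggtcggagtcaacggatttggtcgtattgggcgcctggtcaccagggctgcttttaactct
GAPDHP1: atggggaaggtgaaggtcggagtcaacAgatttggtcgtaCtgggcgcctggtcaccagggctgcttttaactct

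The gene and its pseudogene differ at 3 of these 75 bases for RPL19, at 4 for RPS12, at 0 for FTH1 and at 2 each for KRT18 and GAPDH. The genes lie at chr17:37356536-37361093 (plus strand), chr6:133135708-133138703 (plus), chr11:61727190-61735106 (minus), chr12:53342655-53346690 (plus) and chr12:6643678-6647540 (plus), and the pseudogenes at chrX:150161974-150162564 (plus), chr2:42077343-42077741 (minus), chr9:15527131-15527681 (minus), chr6:28936907-28938237 (minus) and chrX:39646386-39647390 (minus). The annotation names 13 pseudogenes of RPL19, 19 of RPS12, 25 of FTH1, 68 of KRT18 and 65 of GAPDH. How reads that match several places were assigned is not given in the sources used here, so levels of such genes are uncertain.

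Most ribosomal protein RNAs tested were called lower with DMSO, against 19.8% of all tested genes. RPL19, of the large subunit, measured 7.59, 8.21 and 6.71 RPKM with DMSO and 57.4 and 68.3 RPKM untreated, a log2 difference of -2.91 ± 0.12 (SE, limma adjusted p 8.43e-05). RPS12, of the small subunit, measured 11.7, 13.6 and 12.5 RPKM against 61.8 and 67.4 RPKM, a difference of -2.27 ± 0.11 (adjusted p 8.43e-05). Both untreated libraries lay above all DMSO libraries for these genes, as for every gene called lower. Of 39 ribosomal protein genes tested, 31 were called lower, 8 were not called and 0 were higher, with a median of -1.01, and the list took 0.524 to 0.562% of reads with DMSO and 1.09 to 1.26% untreated. All 39 have at least 1 named pseudogene. The count called lower was 27 to 29 under the other scalings and 21 to 33 with any 1 library left out.

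FTH1, the ferritin heavy chain that stores iron, measured 7.91, 13.1 and 10.1 RPKM with DMSO and 54.9 and 63.2 RPKM untreated, a log2 difference of -2.42 ± 0.19 (SE, limma adjusted p 0.000410). KRT18 measured 19.2, 17.2 and 14.5 RPKM against 56.9 and 62.0 RPKM, a difference of -1.76 ± 0.14 (adjusted p 0.000410). The untreated values were the higher ones in every library for both genes, as for every gene called lower. All 4 epithelial genes tested, of 22 in the list, were called lower, against 19.8% of all tested genes. They were KRT18, KRT8 (-1.16), KRT7 (-0.86) and the junction protein F11R (-0.66). KRT7 and F11R have no named pseudogene. KRT18 and KRT7 each overlap 1 other gene, so their falls cannot be assigned to 1 gene with certainty, and the 4 falls may not be separate. F11R passed the mean of 1 RPKM through the untreated group alone, so it had to differ to be tested. The summed RPKM of the 22 epithelial genes was 20.6 to 25.3 with DMSO and 69.2 to 76.8 untreated.

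Over all tested genes, a larger share was called lower where there were more named pseudogenes, a property chosen after the values were seen. Of 5401 genes without one, 15.3% were called lower and 10.5% higher, with a median log2 difference of -0.05. For 756 genes with 1 to 2 the shares were 31.6% and 6.61% (median -0.13), for 291 with 3 to 9 they were 56.0% and 3.09% (-0.37), and for 96 with 10 or more 68.8% and 1.04% (-0.63). Genes of the last class were also shorter, with a median length of 7130 bp against 17700 bp in the first. Their level was higher too, with a median of 8.48 against 2.93 RPKM. The part of length and level in these shares was not tested. A fit restricted to genes without a named pseudogene called 469 higher and 699 lower. Some of the largest falls had none: MYL9, a myosin light chain of contractile cells, measured 71.5, 66.8 and 61.7 RPKM with DMSO and 169 and 214 RPKM untreated, a difference of -1.50 ± 0.14 (SE, adjusted p 0.000870), and TAGLN, at 157, 149 and 159 against 308 and 399.8 RPKM, one of -1.17 ± 0.14 (adjusted p 0.00218).

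**Figure D2:**
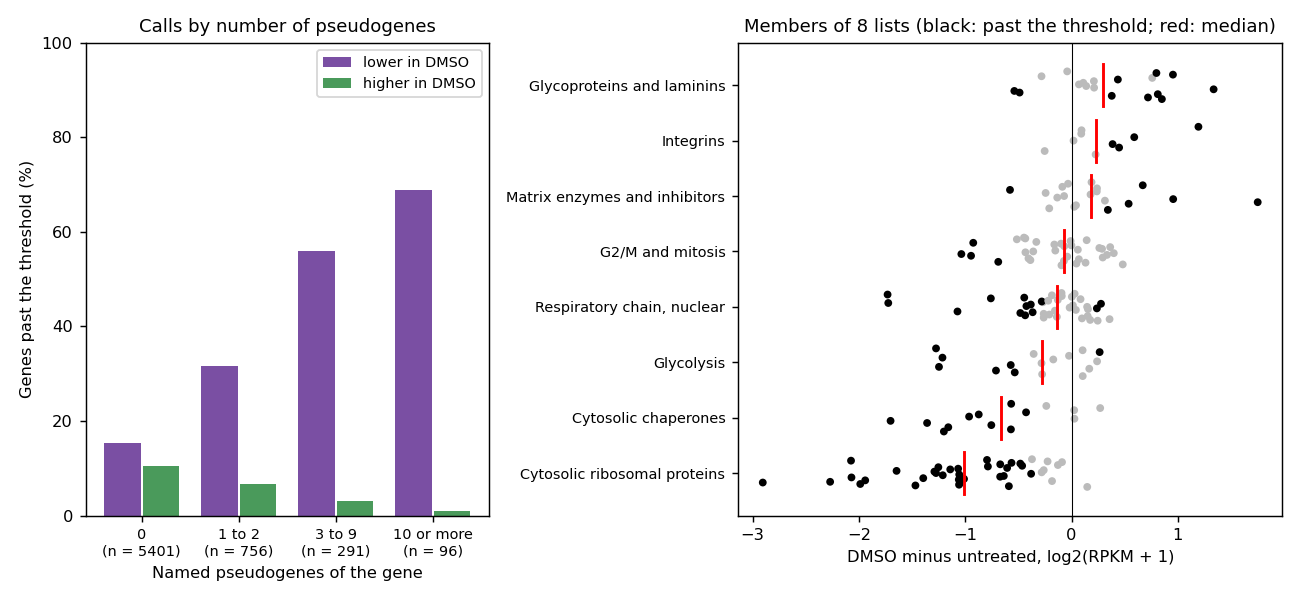
Left, the share of tested genes called lower (purple) or higher (green) with DMSO, in percent, by number of named pseudogenes; right, the log2 difference of each tested member of 8 lists, black where called, with the list's median in red. The share called lower goes from 15.3% to 68.8% from left to right, and the list medians from -1.01 for ribosomal proteins to 0.30 for glycoproteins and laminins.

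Chaperone, glycolysis and respiratory chain genes were also compared by whether they have a named pseudogene. Over all tested genes, 19.8% were called lower and 9.6% higher. Of 14 cytosolic chaperones, 10 were called lower and 0 higher (median -0.66), among them HSPA8, the constitutive HSP70, at 106, 78.1 and 79.6 RPKM with DMSO and 222 and 227 RPKM untreated (log2 difference -1.36, limma adjusted p 0.00176). Of the 7 chaperones without a named pseudogene, 3 were called lower, and without untreated library 2 the list count fell from 10 to 6. In glycolysis 6 of 16 genes were called lower and 1 higher (median -0.28). All 6 were among the 9 with a named pseudogene, and of the other 7, 1 was called higher and 0 lower.

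GAPDH measured 192, 212 and 203 RPKM with DMSO and 443 and 523 RPKM untreated, a log2 difference of -1.25 ± 0.13 (SE, limma adjusted p 0.00112), and LDHA, which makes lactate, differed by -1.21 ± 0.11 (adjusted p 0.000859). SLC2A1, with no named pseudogene, measured 19.6, 17.7 and 18.3 RPKM against 19.6 and 22.4 RPKM, and was not called (-0.17). In the nuclear respiratory chain, 11 of 37 genes were called lower and 2 higher, against 19.8% and 9.6% of all tested genes. Of the 13 without a named pseudogene, 0 were called lower and 1 higher, with a median of 0.03. The count of 11 fell to 5 without DMSO library 3, 6 without untreated library 1 and 4 without untreated library 2.

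Mitochondrially encoded genes moved unequally although they come from shared precursor transcripts. MT-CO1, a catalytic subunit of complex IV, measured 215, 149 and 150.0 RPKM with DMSO and 681 and 689 RPKM untreated, a log2 difference of -2.01 ± 0.18 (SE, limma adjusted p 0.000750). MT-CO2 (-1.28), MT-ATP8 (-1.29) and MT-ND2 (-0.86) were also called lower, whereas MT-ND1, of complex I, was called higher, at 1396, 1376 and 1232 RPKM against 829.7 and 817 RPKM (0.69 ± 0.12, adjusted p 0.00877, and 0.0709 without untreated library 2). The other 8 of 13 were not called, and the list's share of reads in the untreated group lay within the DMSO range of 1.29 to 1.48%. All 13 have named nuclear pseudogenes. Over all tested genes, 19.8% were called lower and 9.6% higher.

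Some of the largest falls cannot be assigned to 1 gene. BEST1, a chloride channel of the pigment epithelium, measured 2.17, 2.82 and 2.76 RPKM with DMSO and 18.3 and 19.3 RPKM untreated (log2 difference -2.47, limma adjusted p 8.43e-05). BEST1 (chr11:61717535-61732987, plus strand) overlaps FTH1 on the opposite strand, whose difference was -2.42. STAMBPL1, a deubiquitinase gene, likewise overlaps ACTA2, with differences of -2.21 and -2.45. The sources used here do not say whether counting used strand. The 2 largest falls of all were those of AL353354.1 (-4.34), which overlaps 2 genes, and of the pseudogene SUMO2P21 (-3.70), at 0.368, 0.830 and 0.743 RPKM with DMSO and 19.2 and 21.4 RPKM untreated.

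Of 11 CDK inhibitor and pocket protein genes tested, 1 was called higher and 3 lower, against 9.6% and 19.8% of all tested genes. CDKN1A measured 24.2, 26.3 and 22.3 RPKM with DMSO and 35.0 and 37.4 RPKM untreated (log2 difference -0.56, limma adjusted p 0.0121), and CDKN1B 17.4, 17.6 and 18.5 RPKM against 13.9 and 12.8 RPKM (0.40, adjusted p 0.0227), so the 2 inhibitors went opposite ways. Neither was called without untreated library 1 (adjusted p 0.05004 and 0.0521), untreated library 2 (0.0946 and 0.118) or DMSO library 3 (0.0519 and 0.0974). The growth-arrest and FOXO target list had 5 of 19 called lower, near the share of all tested genes, and 0 higher. Its largest falls were those of BTG2, an antiproliferative gene, at 0.758, 0.879 and 0.642 RPKM against 4.05 and 3.72 RPKM (-1.47, adjusted p 0.000165) and IGFBP3 (-1.16, adjusted p 0.00344). Its count was 8 without DMSO library 1 or 2, 3 without DMSO library 3, 2 without untreated library 1 and 1 without untreated library 2, and the 3 falls of the CDK inhibitor list became 1 without DMSO library 3 or untreated library 2 and 5 without DMSO library 2.

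Of 33 G2/M genes tested, 4 were called lower and 0 higher, against 19.8% and 9.6% of all tested genes. The 4 were CKS2 (-1.04), CDC20 (-0.95), PTTG1 (-0.93) and AURKA (-0.69), which act in mitotic entry and exit. DMSO library 1 was the lowest of the DMSO group for CKS2 and CDC20, at 3.19 and 5.40 RPKM. Without it 4 were called lower and 5 higher, and TOP2A was then called higher (0.54, adjusted p 0.0269). Without untreated library 1 or 2, 0 were called in either direction. MKI67 and TOP2A differed by 0.36 and 0.40 and were not called with all libraries (adjusted p 0.153 and 0.122). In the G1/S list 2 of 23 were called higher, CCND1 (0.54) and RRM1 (0.34), and 4 lower, both near the shares of all tested genes. Without either untreated library 0 were called in either direction, without DMSO library 3, 1 in each, without DMSO library 2, 1 higher, and the falls became 0 under 1 other scaling.

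In lipid synthesis SCD measured 69.2, 73.5 and 71.4 RPKM with DMSO and 109.6 and 103 RPKM untreated (log2 difference -0.57, limma adjusted p 0.00993), while FASN measured 29.8, 26.2 and 21.3 RPKM against 14.2 and 15.8 RPKM (0.73, adjusted p 0.0136). ACLY, which makes cytosolic acetyl-CoA, was higher by 0.49 (adjusted p 0.0174). Of 22 cholesterol genes 3 were called higher and 3 lower, shares close to those of all tested genes. The falls became 2 without DMSO library 2, 1 without DMSO library 3, without untreated library 1 or under another scaling and 0 without untreated library 2, and the rises 2 without DMSO library 3 or untreated library 1 and 1 without untreated library 2. Without untreated library 2, SCD, FASN and ACLY were not called (adjusted p 0.0562, 0.0938 and 0.125), and without untreated library 1, FASN (0.0902) and ACLY (0.0696) were not.

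Among growth factor genes, IGFBP3, which binds insulin-like growth factors as IGFBP4 does, measured 21.4, 15.4 and 15.2 RPKM with DMSO and 37.7 and 41.2 RPKM untreated, opposite in direction to IGFBP4. EGFR, the epidermal growth factor receptor, measured 1.81, 1.47 and 2.04 RPKM against 0.831 and 0.730 RPKM (log2 difference 0.63, limma adjusted p 0.00480). MYC, a growth-induced transcription factor, measured 11.7, 7.65 and 7.48 RPKM against 16.6 and 17.4 RPKM (-0.88, adjusted p 0.0138). Untreated values were thus higher for IGFBP3 and MYC and lower for EGFR, with no overlap, as for all called genes. None of the 3 was called without untreated library 2 (adjusted p 0.0679 for IGFBP3, 0.0805 for EGFR and 0.129 for MYC), nor was MYC without untreated library 1 (0.0820). Of 19 immediate-early and serum response genes tested, 1 was called higher, PHLDA1 (0.77), and 4 lower, the latter near the share of all tested genes. The 4 became 7 without DMSO library 1, 1 without untreated library 1 and 0 without untreated library 2.

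DMSO library 1 differed from the other DMSO libraries in several genes, of which CCN2, ANKRD1, EGR1, F3 and DUSP1 had the widest range within the group, and THBS1 and TGFB2 were chosen after their values were seen. Other members of their lists did not follow: FOS and PHLDA1 were lowest in DMSO library 1. CCN2 measured 476 RPKM there, and 182 and 172 RPKM in DMSO libraries 2 and 3, against 215 and 233 RPKM untreated. ANKRD1, a target of YAP signalling, measured 76.9 RPKM, then 18.4 and 17.6 RPKM, against 55.1 and 55.5 RPKM. EGR1, an immediate-early transcription factor, measured 15.9 RPKM, then 5.16 and 3.36 RPKM, against 2.73 and 2.69 RPKM. In all 3 genes DMSO library 1 was the highest of the 5 libraries, and the untreated libraries differed little from each other.

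The same library was highest for THBS1, the matrix protein thrombospondin 1 (233 RPKM, against 81.6 to 113 RPKM in the other 4), TGFB2 (4.69 against 1.63 to 2.73 RPKM) and F3, tissue factor (38.4 against 13.5 to 22.1 RPKM). DUSP1, a phosphatase that switches off MAP kinases, measured 14.5, 5.83 and 4.69 RPKM against 13.6 and 15.8 RPKM untreated, so library 1 lay between the untreated values. With all libraries none of these 7 genes was called. Without DMSO library 1, limma called ANKRD1 (-1.56, adjusted p 0.000133), DUSP1 (-1.33, 0.000435), F3 (-0.47, 0.0286) and TGFB2 (-0.39, 0.0167) lower. EGR1 (0.48, 0.0469) and THBS1 (0.39, 0.0360) were called higher, and CCN2 was not called (-0.34, 0.0641). The 7 genes were picked for their spread or after their values were seen, so leaving out that library favoured such calls. The number of genes called over the whole table without it was 1969.

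**Figure D3:**
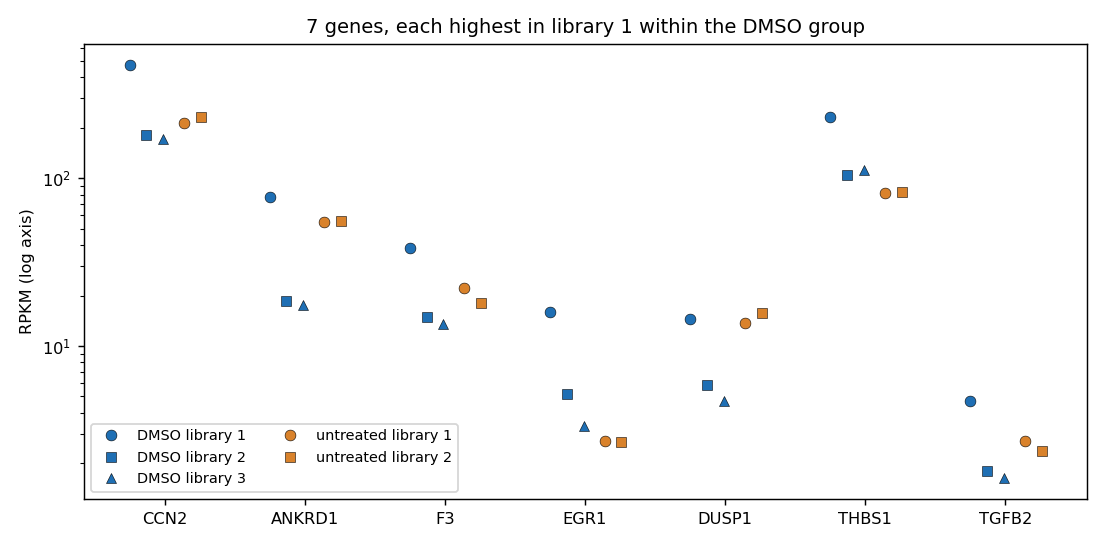
RPKM (log axis) of 7 genes in each control library, blue for DMSO and orange for untreated, with circle, square and triangle for libraries 1, 2 and 3. The blue circle of DMSO library 1 stands above the other DMSO libraries for each gene, at 476 RPKM against 182 and 172 RPKM for CCN2.

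The treated libraries of the 2 experiments share no library with the controls, and merbarone for 30 min was compared with merbarone for 2 h in the same way. In that comparison time and experiment cannot be told apart. Limma called 2803 of 6580 genes (42.6%), 1183 higher (18.0%) and 1620 lower (24.6%) at 30 min. Of the 626 genes called higher with DMSO and tested in both, 520 (83.1%) were also called higher in the treated libraries of that experiment and 2 lower, with median differences of 0.41 in controls and 0.39 in treated libraries. Among the 1277 called lower, 920 (72.0%) were also lower and 1 was higher, with medians of -0.46 and -0.37. Over all 6448 genes tested in both the medians were -0.07 and -0.03.

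Side by side, the control and treated differences were -2.91 and -2.74 for RPL19, -2.42 and -2.32 for FTH1, -1.76 and -1.91 for KRT18, 1.75 and 1.51 for PLAT, 1.62 and 1.77 for IGFBP4 and 1.19 and 1.23 for ITGA2. FN1 differed by 1.34 in controls and 0.33 in treated libraries, VCAN by 1.18 and 0.42 and FASN by 0.73 and 0.01. The difference between the control and treated differences was not called for FN1, VCAN or FASN (limma adjusted p 0.0845, 0.368 and 0.0964), which does not show them to be alike.

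**Figure D4:**
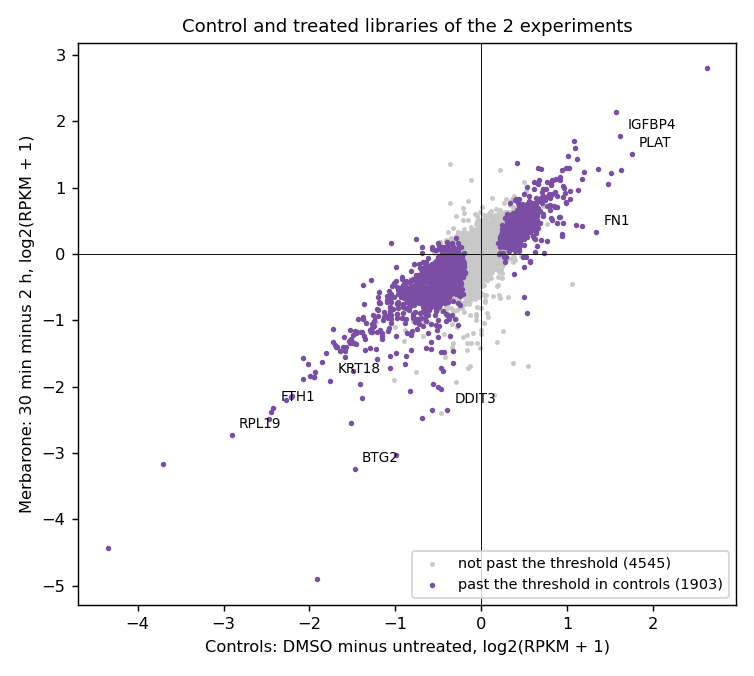
Log2 difference between the 2 experiments in control libraries (x axis, DMSO minus untreated) and in merbarone libraries (y axis, 30 min minus 2 h) for the 6448 genes tested in both, with genes called in the controls in purple. Purple points lie mostly in the upper right and lower left, with RPL19 at -2.91 and -2.74 and PLAT at 1.75 and 1.51, while BTG2 and DDIT3 lie lower on the y axis.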

How the data were processed

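The authors deposited 1 table of RPKM values per library, normalised per the file headers; the submitters' processing notes name Bowtie 1.2.0, DESeq2, edgeR, deepTools 2.4.1 and the builds hg19 and GRCh37, with no role given. Each table lists 20327 genes by Ensembl identifier, of which 19174 matched a symbol in the reference tables given. The deposited RPKM divides by a length within 1% of the gene's GRCh37 span in 75.4% of 17234 genes. Whole reads were recovered from the RPKM steps, giving totals of 11957132 to 38226562 reads per library. Counting error only is covered by the limits of 3 reads.

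Where the mean reached 1 RPKM, genes entered a fit with limma 3.58.1 (R 4.3.3, trended eBayes, two-sided) on log2(RPKM + 1), DMSO minus untreated, with Benjamini-Hochberg adjustment over all genes tested and a threshold of 0.05. A fold change on this scale understates that of low genes. The steps were tested on simulated data. There the fit called 179 of 179 changed genes and also 23 unchanged ones, of 6478 genes tested, so some unchanged genes passed the threshold. Members and the 41 gene lists (785 of 789 entries matched) were chosen with earlier results of these data known. Genes named are the 12 highest by exon level, the 12 largest called differences in each direction, key genes and up to 2 rises and 2 falls of each list, and the 5 with most spread within each group. Others given as list members or overlaps were chosen after their values were seen. Pseudogenes were counted by name in the GENCODE annotation lifted to GRCh37. Alternatives covered the pseudocount, filter, scaling, GC content, length, depth, voom on recovered reads, replicate block and each library left out. Python 3.11.15 with NumPy 2.4.6, pandas 2.3.3 and matplotlib 3.10.9 was used for tables and plots.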

Additional observations from a re-analysis of the deposited data

Results flagged for a closer look

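For 10 of the genes named by the rule above, the difference between the experiments was not the same in control as in merbarone libraries. The test was limma's, of the control difference minus the merbarone difference, with adjustment over all genes tested. The share of all genes passing it was not counted, so 10 is not shown to be many or few. A positive value means that the treated difference (30 min minus 2 h) lay below the control difference (DMSO minus untreated). DDIT3, a stress transcription factor, had -0.40 in controls and -2.35 in treated libraries, and the values differed by 1.95 (adjusted p 0.000572). BTG2 had -1.47 and -3.25, differing by 1.77 (adjusted p 0.00421). PLK3, a stress kinase, had -0.58 and -2.35, differing by 1.77 (adjusted p 0.00160), and CDKN1A had -0.56 and -1.96, differing by 1.40 (adjusted p 0.0112).

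VEGFA, an angiogenic factor, had -0.17 and -1.23 (difference 1.06, adjusted p 0.00279), SLC30A1, a zinc exporter, 0.50 and -0.65 (1.14, adjusted p 0.0178), and TRIB3, a pseudokinase of the amino acid response, -0.20 and -0.87 (0.67, adjusted p 0.0179). ASNS, asparagine synthetase, PSAT1, of serine synthesis, and FOS, an immediate-early factor, were under the 1 RPKM mean in controls. Their differences were 1.28 (adjusted p 0.000775), 0.74 (0.00980) and -2.65 (0.00731), with -1.55, -0.98 and 2.83 in treated libraries. Time under merbarone and experiment cannot be told apart in these values.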

How the results depend on the processing

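None of the 123 called genes named by the rule changed direction under any alternative run, and 27 of the uncalled named genes changed sign under at least 1. The 1925 genes called between DMSO and untreated became 738 with a mean of at least 5 RPKM, 3520 in voom on recovered reads, 142 with a minimum log2 difference of 1 and 1168 among genes without a named pseudogene (added after seeing the data), and ranged from 306 to 1969 with 1 library left out. The merbarone comparison, with 2803 called, gave 5322 with no filter, 922 with a mean of at least 5 RPKM, 5515 in voom and 987 to 3549 with 1 library left out. Genes at 1 or more numbered 6544 by RPKM and 11479 by exon level. The causes were not tested, beyond the smaller gene sets and sample numbers that the settings themselves fix.

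With the replicate block, 932 genes were called between the controls and 1756 between the treated groups, and 82 of the 123 called named genes were still called. The labels do not say that replicate numbers pair libraries, and same-numbered libraries deviated together only weakly (correlations 0.059 and 0.168). Without untreated library 2, 43 of the 123 were still called. Of 1510 list counts compared across settings, 1035 were within 1.5 times. Reads thinned to the shallowest library gave 1764 calls between the controls.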

Other observations

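Of 15 genes of endoplasmic reticulum chaperones and the unfolded protein response, 5 were called higher and 3 lower, against 9.6% and 19.8% of all tested genes. Their median log2 difference was 0.09. HYOU1 (0.63) and CANX (0.51), which fold secreted proteins, were higher, and PDIA3 (-0.44) and XBP1 (-0.38) lower. Without untreated library 2, 0 were called in either direction, and without DMSO library 3 or untreated library 1, 2 were called higher and 0 or 1 lower. Of 21 lysosome and autophagy genes, 3 were called higher and 3 lower, near the 9.6% and 19.8% of all tested genes: the protease CTSK (0.66) and the membrane protein LAMP2 (0.46) were higher, and MAP1LC3B (-0.63), of autophagosomes, and NPC2 (-0.55), a cholesterol carrier, lower. Of these 6, the upward count was 0 without untreated library 2 or DMSO library 3, and 1 without untreated library 1.

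ISG15, an interferon-stimulated gene, measured 6.76 to 8.19 RPKM with DMSO and 6.17 to 8.38 RPKM untreated. The metallothionein MT1E measured 69.7, 59.3 and 51.7 RPKM with DMSO and 117 and 142 RPKM untreated (-1.10, limma adjusted p 0.00405), while HMOX1 (-0.19) and NQO1 (0.07), targets of NRF2, were not called. FST, follistatin, which binds activins, was lower (-1.05, adjusted p 0.00452), and GREM1, a BMP antagonist, higher (0.75, adjusted p 0.0357). Without untreated library 2, MT1E (adjusted p 0.0658), FST (0.0701) and GREM1 (0.223) were not called, nor were FST (0.0540) and GREM1 (0.126) without untreated library 1 or GREM1 (0.0801) without DMSO library 3.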
